A study of Mus musculus with 4 samples.

Results

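The genes described here are the ligands and receptors that steer growing axons. They were taken by symbol from the protein-coding genes of the GENCODE M21 mouse annotation and comprise the semaphorins (Sema3 to Sema7), plexins, neuropilins, ephrins, Eph receptors, Slits, Robos, netrins and the netrin receptors Dcc and Unc5a to Unc5d. The rule found 69 genes of 21938, of which 35 are ligand genes and 34 are receptor genes. The study measured acetylation of lysine 9 of histone H3 (H3K9ac), a mark of active promoters and enhancers, by chromatin immunoprecipitation and sequencing (ChIP-seq). The cells were HT22, a single immortalised mouse line of hippocampal origin, grown in high-glucose medium with fetal bovine serum. Supplemented cells had 70 µM choline chloride and control cells had 5 µM choline chloride, both for 48 h. There were 4 libraries, 2 of ChIP DNA and 2 of input DNA, and no label ties a library to a choline level, so that each level had at most 1 ChIP library.

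The values come from a list of 45855 regions that the authors called different between the conditions, 45495 of them for 70 µM choline and 360 for 5 µM choline. This reading of the conditions rests on the order in which the levels stand in the name the authors gave the comparison. Regions shared by both conditions are not part of the list, so a gene with no region may carry H3K9ac at both levels or at neither. Beside its position, each region carries a score, which is the authors' own value and is used here only to describe and rank regions within the list. The column has no name in the list. The program used writes a log10 likelihood ratio between the conditions at that place. Scores ran between 3.08 and 44.5 with a median of 6.64. With no replicate of either level there was no test, and all intervals below are exact (Clopper-Pearson or Poisson) 95% intervals that cover counting over genes or regions only.

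Guidance cues are secreted or membrane-bound proteins that attract or repel the growth cone, the motile tip of an axon. Semaphorins act through plexins, with neuropilins as the binding partners for most secreted class 3 semaphorins, ephrins act through Eph receptor tyrosine kinases, Slits through Robos, and netrins through Dcc and the Unc5 receptors. In the hippocampus these families shape the layered projections and the synapses of pyramidal and granule cells, and many of them also act outside the nervous system, for example in blood vessels.

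As a check of the labelled hippocampal neuron cell, chosen markers of neurons and of other cells were looked up in the list. A region lay within 1 kb of a start of 2 of 8 neuronal marker genes (Rbfox3 and Syn1), 2 of 5 astrocyte, 1 of 5 oligodendrocyte, 1 of 5 microglia and 6 of 7 fibroblast marker genes, against 39.5% of all protein-coding genes. The interval for the neuronal share of 25.0% ran from 3.19% to 65.1% and held that background, and the interval for the fibroblast share of 85.7% ran from 42.1% to 99.6%. Of the other neuronal markers, Map2 and Tubb3 had regions inside the gene only, and Nefl, Nefm, Dcx and Snap25 had none. The marked fibroblast genes were Col1a1, Col1a2, Col3a1, Pdgfrb, Thy1 and Vim, of which Thy1 scored highest, at 17.6. How well these lists, Thy1 among them, set the cell types apart was not tested. A list of differences cannot show whether a marker is expressed, and the part of the cells' identity in the results below was not tested.

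Regions were assigned to a gene in 2 ways. A start region overlapped a window of 1000 bp before to 1000 bp after an annotated transcript start of the gene, and a span region overlapped the gene elsewhere. The 9 sequences that follow are the highest-scoring start region of 1 gene of each family that had any, with the region of Ephb2 added after its values were seen because it is rich in CpG. They are shown as the strongest start region of each family, with CpG in capitals. Apart from that of Ephb2, the printed stretches held between 0 and 5 CpG, whether their scores were high or low. Each is read 5′ to 3′ on the strand of its gene from the RefSeq sequence of GRCm38.p6, which is the mm10 build of the deposited coordinates. The Plxna1 and Efna1 regions are shown in part, as 300 of 329 bp and 164 of 191 bp.
Sema5b start region, chr16:35540490-35540615, plus strand: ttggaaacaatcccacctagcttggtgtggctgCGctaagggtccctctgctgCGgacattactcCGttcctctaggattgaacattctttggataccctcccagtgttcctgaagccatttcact
Efna1 start region, chr3:89280629-89280792, minus strand: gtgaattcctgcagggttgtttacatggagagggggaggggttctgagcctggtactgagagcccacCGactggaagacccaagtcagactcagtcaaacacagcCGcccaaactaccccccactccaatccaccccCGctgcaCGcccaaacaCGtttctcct
Slit2 start region, chr5:47987410-47987630, plus strand: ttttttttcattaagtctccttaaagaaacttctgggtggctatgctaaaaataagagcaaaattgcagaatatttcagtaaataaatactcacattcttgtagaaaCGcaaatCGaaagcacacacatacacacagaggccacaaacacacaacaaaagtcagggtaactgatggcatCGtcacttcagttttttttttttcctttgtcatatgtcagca
Ntn5 start region, chr7:45683484-45683720, plus strand: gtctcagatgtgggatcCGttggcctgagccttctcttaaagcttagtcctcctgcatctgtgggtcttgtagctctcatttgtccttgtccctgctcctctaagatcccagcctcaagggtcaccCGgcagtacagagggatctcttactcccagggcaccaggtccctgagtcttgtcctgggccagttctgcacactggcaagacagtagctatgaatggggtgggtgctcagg
Plxna1 start region, chr6:89320043-89320342, minus strand: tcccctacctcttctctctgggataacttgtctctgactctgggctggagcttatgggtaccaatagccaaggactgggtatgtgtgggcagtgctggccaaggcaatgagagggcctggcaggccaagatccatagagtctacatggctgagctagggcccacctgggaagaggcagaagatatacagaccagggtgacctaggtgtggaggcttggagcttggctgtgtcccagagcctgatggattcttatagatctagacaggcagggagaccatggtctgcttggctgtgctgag
Nrp1 start region, chr8:128359933-128360083, plus strand: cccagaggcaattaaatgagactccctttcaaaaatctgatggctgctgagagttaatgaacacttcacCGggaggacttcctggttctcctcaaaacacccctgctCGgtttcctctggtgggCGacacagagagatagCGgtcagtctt
Epha2 start region, chr4:141316358-141316521, plus strand: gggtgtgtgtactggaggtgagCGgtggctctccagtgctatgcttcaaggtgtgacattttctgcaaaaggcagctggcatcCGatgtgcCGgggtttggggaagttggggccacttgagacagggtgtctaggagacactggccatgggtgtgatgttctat
Ephb2 start region, chr4:136835175-136835402, minus strand: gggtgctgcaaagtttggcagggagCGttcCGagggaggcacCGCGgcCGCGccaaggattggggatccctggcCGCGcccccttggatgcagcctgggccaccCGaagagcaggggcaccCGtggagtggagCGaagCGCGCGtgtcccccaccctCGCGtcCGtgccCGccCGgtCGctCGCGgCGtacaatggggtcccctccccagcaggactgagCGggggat
Unc5a start region, chr13:55003813-55003953, plus strand: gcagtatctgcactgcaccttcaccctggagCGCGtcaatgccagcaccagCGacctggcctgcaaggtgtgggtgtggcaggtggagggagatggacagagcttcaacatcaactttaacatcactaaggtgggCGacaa

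Of the 69 guidance genes, 30 had a start region, or 43.5% (31.6% to 56.0%), against 39.5% of all 21938 protein-coding genes, which lies inside that interval. A span region was found in 42 of the 69, or 60.9%, against 36.6% of all protein-coding genes. The guidance genes are long, with a median span of 46.3 kb against 17.4 kb for all protein-coding genes, and had a median of 4 annotated starts against 3. Per length, the guidance genes held 1.36 span regions per 100 kb (1.16 to 1.59), against 1.92 per 100 kb over all protein-coding genes. This order held only for long genes. Guidance genes over 100 kb, which make up 11008 of the 11837 kb of span, held 0.808 span regions per 100 kb (0.649 to 0.995), against 1.28 for all protein-coding genes of that length. Those of 20 to 100 kb held 9.45 per 100 kb (7.10 to 12.3), against 2.66, and those under 20 kb held 6.98 per 100 kb (4.14 to 11.03), against 3.53. Neither kind of region was found at 22 guidance genes, or 31.9%, against 45.3% of all protein-coding genes.

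Together the guidance genes held 210 regions, 208 called for 70 µM choline and 2 for 5 µM choline. Over all protein-coding genes the counts were 31976 and 281, so nearly all regions were 70 µM regions in both. Of the 210 regions of guidance genes, 49 were start regions and 161 were span regions. No start region of a guidance gene lay in the start window of another protein-coding gene, and 2 of the 161 span regions, in Epha1 and Ntn5, also overlapped the span of a neighbouring gene, as did 1 start region, that of Ntn5. The share with a region differed with gene length. Of 16 guidance genes between 20 and 100 kb long, 12 had a start region (75.0%, against 48.5% of all protein-coding genes in that length class), while 9 of 32 over 100 kb long had one (28.1%, against 43.1%). In the class below 20 kb, 9 of 21 guidance genes had a start region (42.9%, against 32.9%).

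**Figure D1:**
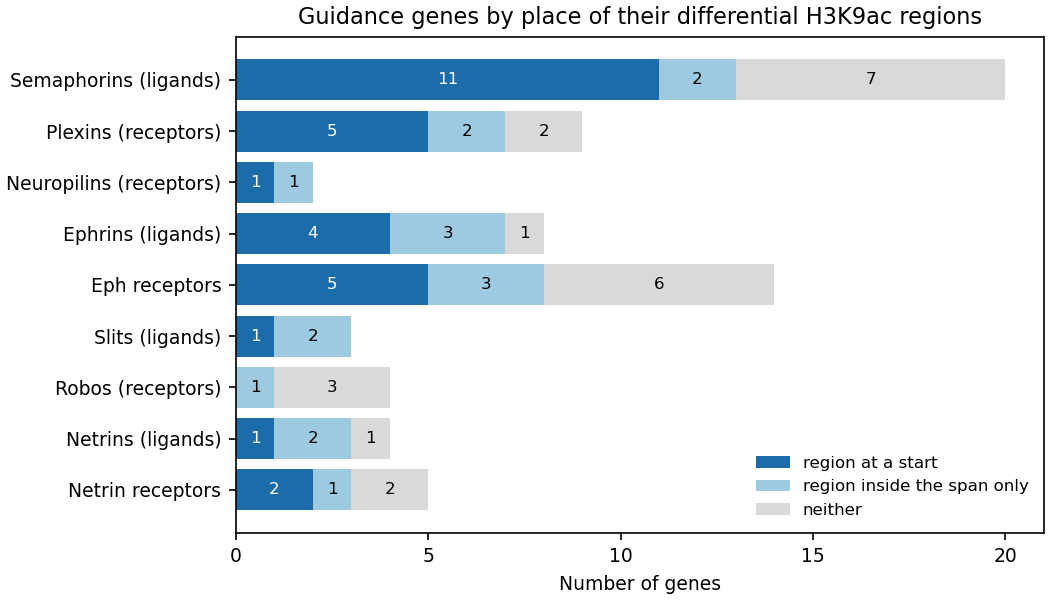
Number of guidance genes (horizontal axis) in each of 9 families (vertical axis) with a differential H3K9ac region within 1 kb of an annotated start, with regions inside the gene span only, or with neither. The 11 of 20 semaphorins with a start region form the longest dark segment, and the Robos have none.

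Among the ligand genes, 17 of 35 had a start region (48.6%, 31.4% to 66.0%), and among the receptor genes 13 of 34 had one (38.2%, 22.2% to 56.4%). The intervals overlapped widely. Span regions were denser in the ligand genes, at 2.12 per 100 kb (1.71 to 2.60), than in the receptor genes, at 0.905 per 100 kb (0.701 to 1.15). The ligand genes were also shorter, with a median span of 29.0 kb against 92.2 kb, and density fell with length over all protein-coding genes. The part of gene length in this and in the family densities was not tested. By family, a start region was found at 11 of 20 semaphorin, 5 of 9 plexin, 1 of 2 neuropilin, 4 of 8 ephrin, 5 of 14 Eph receptor, 1 of 3 Slit, 0 of 4 Robo, 1 of 4 netrin and 2 of 5 netrin receptor genes. The interval for the Robos reached 60.2%, and the family with the most genes, the semaphorins, had an interval of 31.5% to 76.9%, so the start shares of the families could not be ordered at these gene numbers. The families spread further apart in the density of span regions, between 3.84 per 100 kb in the neuropilins and 0.0776 per 100 kb in the Robos.

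The semaphorins are secreted, membrane-spanning or lipid-anchored proteins that share the sema domain. A start region lay at Sema3a, Sema3b, Sema3f, Sema4a, Sema4b, Sema4c, Sema4d, Sema5a, Sema5b, Sema6c and Sema7a. Sema3e and Sema6b had span regions only, and Sema3c, Sema3d, Sema3g, Sema4f, Sema4g, Sema6a and Sema6d had neither. By class, start regions lay at 3 of 7 class 3 genes, which are secreted, 4 of 6 class 4, 2 of 2 class 5 and 1 of 4 class 6 genes, which span the membrane, and at Sema7a, which is lipid-anchored. All start regions of semaphorins were 70 µM regions, as were nearly all regions of the list.

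Sema5b, a class 5 semaphorin with thrombospondin repeats, had the highest-scoring start region of all guidance genes, 126 bp long with a score of 25.6, which lay 530 bp outside the annotated gene. The start region of Sema3b, a secreted semaphorin that can repel axons through neuropilins, scored 22.9 over 163 bp at chr9:107602191-107602353. It lay in an intron, 25 bp from the nearest start and 6.96 kb inside the gene. Sema6c, a membrane-spanning semaphorin, had a region of 171 bp with a score of 14.5 at chr3:95163886-95164056, and Sema4a, which also acts in immune cells, one of 137 bp with a score of 10.3 at chr3:88461724-88461860. The regions held 3 CpG at Sema5b, 6 at Sema3b and 0 at Sema6c and Sema4a, against a median of 5 over the start regions of guidance genes. The best start regions of the other 7 marked semaphorins scored between 4.06 (Sema3f) and 7.54 (Sema4d).

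Ephrins are the membrane-bound ligands of Eph receptors, held by a lipid anchor in class A and by a membrane-spanning segment in class B. A start region lay at Efna1, Efna3, Efnb1 and Efnb2. Efna4, Efna5 and Efnb3 had span regions only, and Efna2 had neither. Efna1, the usual partner of Epha2, had a start region with a score of 19.2 over 191 bp at chr3:89280629-89280819 and another with a score of 3.59. Efna3 followed with a score of 7.66 over 200 bp at chr3:89322075-89322274. Efnb1 had a score of 5.12 over 169 bp at chrX:99136851-99137019, and Efnb2, a ligand with roles in vessels as well as in axons, had a score of 4.11 over 192 bp at chr8:8660547-8660738. The Efnb2 region held 21 CpG, and that of Efna1, with the higher score, held 6.

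Efna1, Efna3 and Efna4 are neighbours on chromosome 3, in a stretch where regions were dense throughout. The 1000 kb either side of Efna1 held 300 regions, against 58 in flanks of the same length around Sema5a and 0 around Robo1. Sema4a lies on the same chromosome, with 14.3 regions per 100 kb in its flanks, which partly overlap those of Efna1, and 15.9 per 100 kb inside the gene.

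Slits are large secreted repellents of axons and migrating cells. Slit2 had 5 start regions, more than any other guidance gene, while Slit1 and Slit3 had span regions only. Slit2 also had the most annotated starts of all guidance genes, 18 against 4 each in Slit1 and Slit3. The 5 regions of Slit2 lay within 4.38 kb of its first start on chromosome 5 and scored 4.14, 6.36, 3.68, 4.08 and 8.58 in order along the gene. The last, at chr5:47987410-47987630, was 221 bp long and held 3 CpG at 34.8% GC. Netrins are laminin-related cues that attract or repel according to the receptor. Ntn5 had a start region of 237 bp with a score of 3.97 at chr7:45683484-45683720, which also lies in the span of the neighbouring gene Sec1, Ntn1 and Ntn4 had span regions only, and Ntn3 had neither.

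Plexins are the signalling receptors of semaphorins. Start regions lay at Plxna1, Plxna2, Plxna3, Plxnb2 and Plxnd1. Plxna4 and Plxnc1 had span regions only, and Plxnb1 and Plxnb3 had neither. Plxna1, which signals for class 3 semaphorins together with neuropilins, had 3 start regions with scores of 21.4, 6.92 and 4.04. The strongest, 329 bp at chr6:89320029-89320357, lay in intron 31 of the longest transcript, 42.4 kb from the 5′-most start, beside an internal annotated start and held no CpG. The region of 168 bp outside the gene, at chr6:89363026-89363193, scored 6.92 and held 16 CpG.

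Plxnd1, the receptor of Sema3e, had a similar arrangement. Its strongest start region scored 17.0 over 234 bp at chr6:115961001-115961234 in intron 25, another scored 9.26 in intron 29, and the one before the gene scored 5.56. Plxnb2, a receptor of class 4 semaphorins, had a region of 147 bp with a score of 8.80 at chr15:89170296-89170442 and one with a score of 3.88. Plxna2 had 335 bp with a score of 7.75 at chr1:194620595-194620929 and a region with a score of 3.69, and Plxna3 had a single start region with a score of 4.46. Of the neuropilins, Nrp1, which binds class 3 semaphorins and vascular endothelial growth factor, had a start region of 151 bp at chr8:128359933-128360083 with a score of 3.25, the lowest among the start regions of guidance genes. Nrp2 had span regions only.

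Eph receptors are tyrosine kinases that signal on contact between cells. Start regions lay at Epha2, Epha4, Ephb2, Ephb3 and Ephb4. Epha1, Epha10 and Ephb1 had span regions only, and Epha3, Epha5, Epha6, Epha7, Epha8 and Ephb6 had neither. Start regions were thus found at 2 of 9 EphA and 3 of 5 EphB genes. Epha2, which acts mainly in epithelia and vessels, had regions with scores of 19.2, 7.09 and 5.94, the strongest of 164 bp at chr4:141316358-141316521 in intron 3. Ephb3 had 1 region of 140 bp with a score of 15.5 at chr16:21216189-21216328, also in intron 3.

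Epha4, which binds ephrins of both classes, had regions with scores of 6.14 and 4.87, the stronger of 221 bp at chr1:77514322-77514542. Ephb4, a receptor of Efnb2 in veins, had regions with scores of 5.51, 5.49 and 4.62, the strongest of 127 bp at chr5:137349764-137349890. The start region of Ephb2, at chr4:136835175-136835402, had a score of 4.51 and held 24 CpG in 228 bp.

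Robos are the Slit receptors. None of the 4 had a start region. Robo1 had a single span region, of 121 bp with a score of 6.54 at chr16:72634479-72634599, and Robo2, Robo3 and Robo4 had no region. Among the netrin receptors, Unc5a and Unc5b had start regions, Unc5c had span regions only, and Unc5d and Dcc, the attractive netrin receptor, had neither. The Unc5a region of 141 bp, at chr13:55003813-55003953, had a score of 13.2 and lay in a coding exon 54.5 kb from the 5′-most start. The Unc5b region of 277 bp, at chr10:60831227-60831503, covered a start, had a score of 4.39 and held 48 CpG, the most of any start region of a guidance gene.

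**Figure D2:**
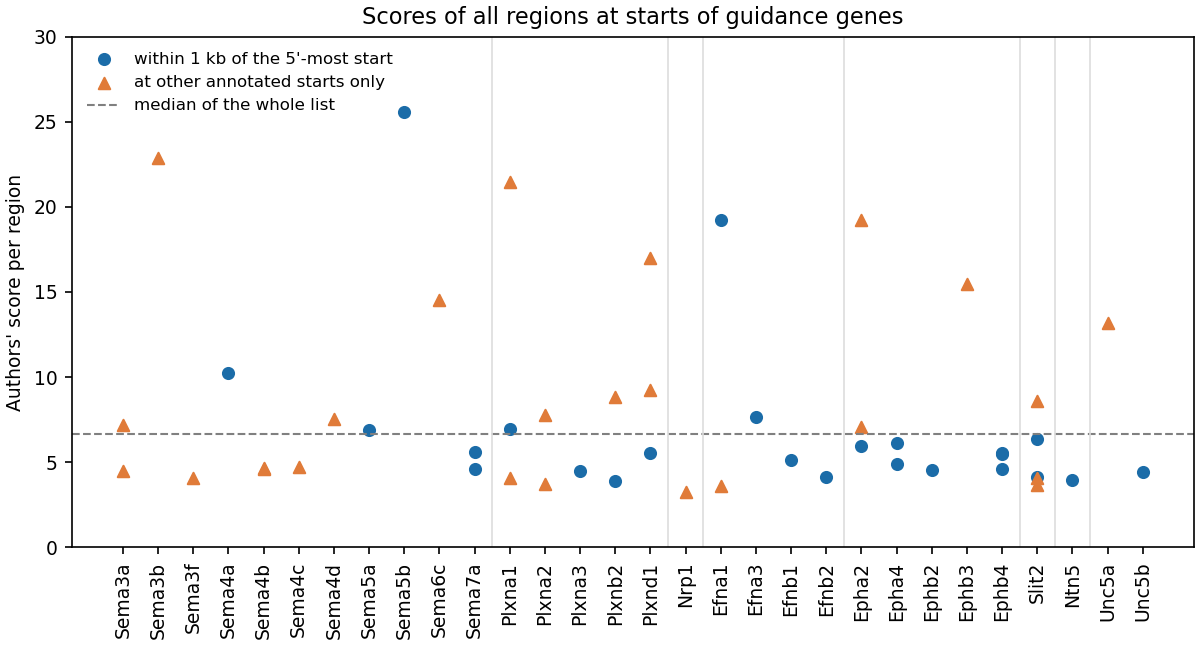
The authors' score (vertical axis) of each of the 49 start regions of the 30 guidance genes that had one (horizontal axis, by family). Circles lie within 1 kb of the 5′-most start and triangles only at other annotated starts, and 7 of the 10 regions with a score of 10 or more are triangles.

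The start regions of guidance genes often lay near internal annotated starts. For 22 of the 49, the nearest annotated start belonged to a protein-coding transcript. For the rest it belonged to another type, such as a retained intron or processed transcript. The latter held for the highest-scoring start regions of Sema3b, Plxna1, Plxnd1, Epha2 and Ephb3. Transcript types were not counted for all protein-coding genes. Of the 49, 24 lay within 1 kb of the 5′-most start of the gene and 25 only at other annotated starts, or 51.0%, against 33.8% of the 13316 start regions of all protein-coding genes. The latter share counts regions away from the 5′-most start of any protein-coding gene. That rule leaves the guidance share unchanged, as no guidance start region lay in another gene's start window. Guidance genes had a median of 4 annotated starts against 3, and the part of this was not tested. The regions at other starts had a median score of 7.18 and a median of 4 CpG, and those at the 5′-most start a median score of 5.50 and a median of 8.5 CpG. Over all protein-coding genes the same medians were 5.68 and 3 CpG at other starts, and 4.81 and 8 CpG at the 5′-most start. Of the 10 start regions with a score of 10 or more, 7 lay at other starts only, and 13 of the 49 lay over 10 kb from the 5′-most start. Counting the 5′-most start alone left 19 of 69 guidance genes with a start region, or 27.5% (17.5% to 39.6%), against 32.5% of all protein-coding genes.

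A start itself was covered by 3 of the 49 start regions, at Sema3a, Ephb4 and Unc5b. The midpoints of 29 lay downstream and those of 20 upstream of the nearest start, and 31 lay in introns, 8 before the gene, 6 in untranslated exons, 3 in coding exons and 1 in a noncoding exon. These placements were not counted for all protein-coding genes, so they cannot be called particular to guidance genes. The number of annotated starts went with the share of genes marked. With 6 or more starts, 65.2% of guidance genes had a start region, against 65.3% of all protein-coding genes with as many. With 1 or 2 starts the shares were 14.3% and 19.1%, in the same order.

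The median start region of guidance genes had a score of 5.56, against 5.00 over all protein-coding genes, and the median span region had 8.36, against 8.74. Counting only regions at or above the list's median score of 6.64, 17 of 69 guidance genes had a start region, or 24.6% (15.1% to 36.5%), against 14.6% of all protein-coding genes, which lies just below the interval. These were 10 ligand genes of 35 and 7 receptor genes of 34. The guidance genes also had more annotated starts, and the part of these in the difference was not tested.

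Inside the genes, the span regions were unevenly shared, with 60 of the 161 in 5 genes. Most lay in introns (144, with 10 in coding and 7 in untranslated exons), and 80 lay over 10 kb from any start of their own gene. The 2 sequences that follow are the strongest span regions of Slit3 and Sema5a, the genes with the most span regions, read and marked as before. The Slit3 region held 5 CpG and the Sema5a region 1, against a median of 2 over the span regions of guidance genes.
Slit3 span region, chr11:35299967-35300207, plus strand: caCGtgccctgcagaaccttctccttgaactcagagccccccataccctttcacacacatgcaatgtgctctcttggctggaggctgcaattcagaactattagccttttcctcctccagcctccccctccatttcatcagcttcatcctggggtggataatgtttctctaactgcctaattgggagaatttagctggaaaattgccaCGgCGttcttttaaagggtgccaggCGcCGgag
Sema5a span region, chr15:32421030-32421194, plus strand: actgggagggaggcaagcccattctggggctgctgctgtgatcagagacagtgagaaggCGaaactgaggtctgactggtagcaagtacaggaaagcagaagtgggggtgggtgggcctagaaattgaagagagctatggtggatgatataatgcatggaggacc

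Slit3, a repellent that also acts in vessels and muscle, held 25 span regions, more than any other guidance gene, and no start region. All 25 were 70 µM regions, as were nearly all regions of the list. They lay in introns, spread over the gene between 3.21 and 574 kb from its first start. Their median score was 18.3, and the strongest, 241 bp at chr11:35299967-35300207 in intron 4, scored 35.1, the highest of all guidance regions. At 587 kb the gene held 4.26 span regions per 100 kb, against 1.85 regions of any kind per 100 kb in the 1000 kb either side. Slit3 was picked for its number of span regions, which favours a higher value inside the gene. Chromosome 11 had the highest density of regions of all chromosomes, at 3.75 per 100 kb. In 4 of the 25 regions the score was 19.00731, a value that the list repeats in 2552 regions.

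The other Slits differed from Slit3 in this. Slit1 held 2 span regions, with scores of 4.12 and 4.01, and Slit2 held 1, with a score of 8.86, in 325 kb. The Slits together held 2.65 span regions per 100 kb (1.76 to 3.83), against 0.0776 per 100 kb (0.00197 to 0.432) in their Robo receptors. Robo1 and Robo2 are long, at 738 and 520 kb, and the 1000 kb either side of each held 0 regions. Both lie on chromosome 16, which had 1.19 regions per 100 kb.

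**Figure D3:**
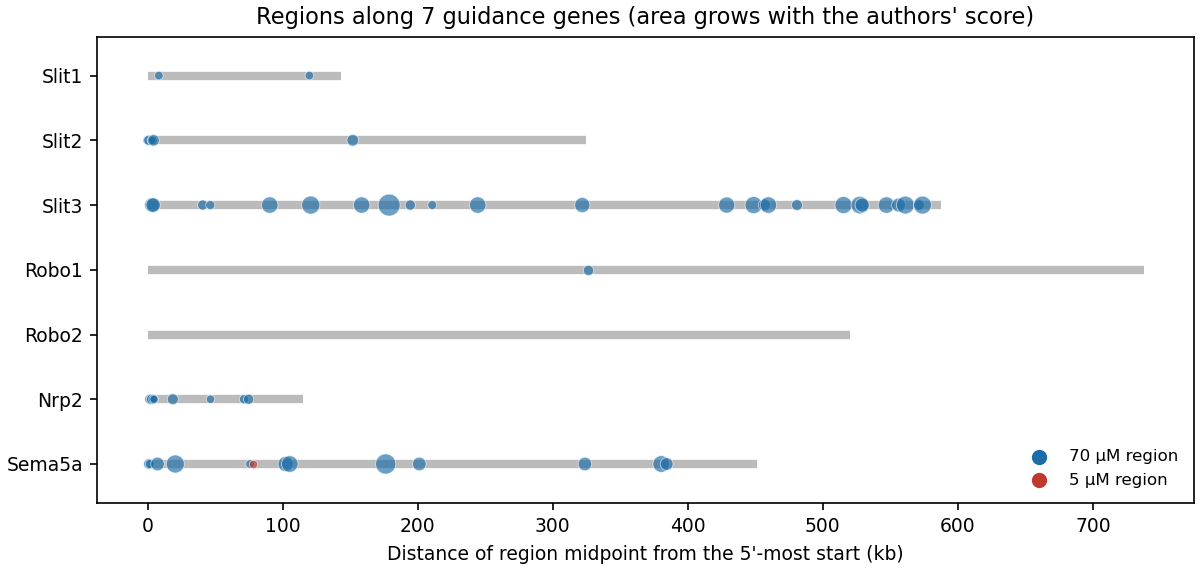
Midpoints of differential H3K9ac regions (circles, area growing with the authors' score) along 7 guidance genes, by distance in kb from the 5′-most start on the horizontal axis, with grey bars for the gene spans. Slit3 carries 25 regions along its whole length, Nrp2 has 5 of 9 in intron 1, and Robo2 has none.

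Sema5a, whose protein carries thrombospondin repeats and can attract or repel, held 12 span regions, of which 11 were 70 µM regions and 1 was a 5 µM region. The strongest, 165 bp at chr15:32421030-32421194 in intron 3, had a score of 29.5. Its density was 2.66 per 100 kb, against 2.90 per 100 kb in the flanks, so the gene stood close to its surroundings on chromosome 15, which had 3.71 regions per 100 kb. Sema3f, a repellent that acts through Nrp2, held 7 span regions in 29.0 kb with scores between 3.999 and 8.88. Of these, 6 lay in intron 2, and 1 of them was 912 bp long with 20 CpG.

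Nrp2, the receptor of Sema3f, held 9 span regions, 5 of them in intron 1 between 1.68 and 4.76 kb from the first start. All 9 were weak to moderate, with scores between 3.44 and 7.64. The gene held 7.80 span regions per 100 kb, against 0.850 regions of any kind per 100 kb in its flanks. Nrp2 was likewise picked for its number of span regions. Nrp1 held 1 span region, in intron 9, of 173 bp with a score of 22.3 at chr8:128474785-128474957, far above the 3.25 of its start region. With a start window of 2500 bp in place of 1000 bp, both neuropilins had a start region.

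Plxna1 and Plxnd1 each held 7 span regions. Those of Plxna1 were all 70 µM regions with scores between 3.87 and 12.9. Those of Plxnd1 comprised 6 regions of 70 µM with scores between 5.75 and 16.2 and 1 of 5 µM. The density of span regions in Plxnd1, also picked for their number, was 17.4 per 100 kb, against 2.75 regions of any kind in its flanks. Plxna4, with no start region, held 6 span regions, the strongest of 233 bp with a score of 27.1 at chr6:32385630-32385862 in intron 3, and Plxnc1 held 3, up to a score of 22.5.

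Of the ephrins, Efna1 held 4 span regions with scores between 3.29 and 5.74, and Efna5, a long ephrin gene, held 4 with scores between 4.01 and 8.38. Ephb1 held 4 span regions with scores of 6.09, 21.1, 23.5 and 13.4, all in introns, and Ephb4 held 3, the strongest with a score of 15.5. The ephrins as a family held 3.75 span regions per 100 kb (2.05 to 6.29) and the Eph receptors 0.403 per 100 kb (0.201 to 0.721). The longest Eph receptor gene, Epha6, had no region in 952 kb and lay among 0.350 regions per 100 kb in its flanks.

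Ntn1, the founding netrin of vertebrates, held 5 span regions with scores between 4.22 and 18.2, all in introns 87.0 to 161 kb from the first start. Ntn4 held 1, of 304 bp with a score of 6.85, and Ntn5 held 1, of 153 bp with a score of 17.6. Unc5b, a netrin receptor of vessels and neurons, held 7 span regions, all in intron 1, with scores between 3.76 and 6.45. Unc5a held 2, with scores of 10.6 and 15.3, and Unc5c held 2, with scores of 11.3 and 12.4. Dcc, the longest guidance gene at 1097 kb, had no region, and its flanks held 0.450 regions per 100 kb.

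**Figure D4:**
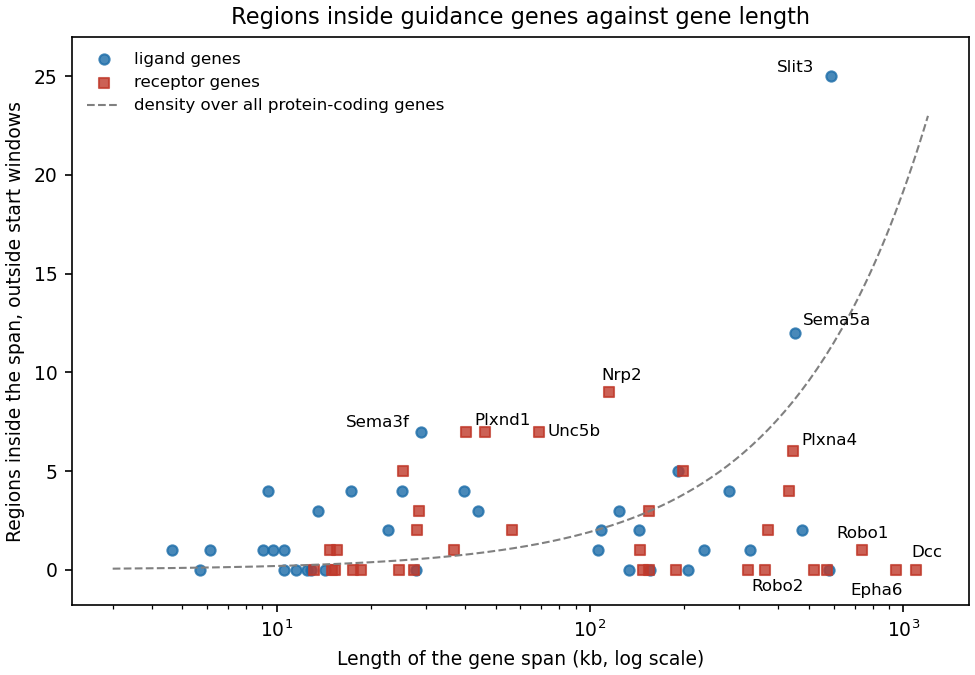
Number of span regions (vertical axis) against the length of the gene span in kb (horizontal log axis) for the 69 guidance genes, with ligand genes as circles, receptor genes as squares and the density over all protein-coding genes, 1.92 per 100 kb, as a dashed line. Slit3 with 25 regions stands above the line, and Dcc, Epha6 and Robo2 with 0 below it.

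Both kinds of region were found at 25 guidance genes, or 83.3% of those with a start region, against 54.1% over all protein-coding genes. In 19 of the 25 the strongest region lay inside the span. Examples are Nrp1, Efna3, where a span region in a coding exon scored 22.6 against 7.66 at the start, and Efnb2, with 22.5 in intron 2 against 4.11 at the start. The share with the strongest region inside the span was not counted over all protein-coding genes. Among those with a start region, the 4692 with a span region had a median best score of 14.4 inside the span. The median best score at the starts was 5.68 over all 8665. In guidance genes these medians were 16.2 over the 25 with a span region and 7.36 over all 30, in the same order. These 30 genes held 90 span regions and 49 start regions, and the part of region number in the medians was not tested. The 30 guidance genes with a start region held 3.30 span regions per 100 kb, against 0.780 per 100 kb in the 39 without. Over all protein-coding genes the same densities were 2.97 and 1.19 per 100 kb, in the same order. The lengths differed the other way. Median spans with and without a start region were 34.3 and 143 kb in guidance genes, and 23.7 and 13.6 kb over all protein-coding genes. The part of gene length in these shares and densities was not tested.

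The 2 regions called for 5 µM choline were both span regions, in Sema5a and in Plxnd1. That of Sema5a, at chr15:32323082-32323272, was 191 bp long, had a score of 3.71 and lay in intron 1, 78.4 kb from the first start. That of Plxnd1, at chr6:115991795-115991918, was 124 bp long, had a score of 5.98 and also lay in intron 1, 3.15 kb from the first start. Both lay close to 70 µM regions of the same intron. In Sema5a the nearest was at chr15:32320529-32320772 with a score of 4.07, and in Plxnd1 it was at chr6:115991551-115991694 with a score of 5.96. Their sequences, with CpG in capitals, are given as the only guidance regions of the control condition.
Sema5a 5 µM span region, chr15:32323082-32323272, plus strand: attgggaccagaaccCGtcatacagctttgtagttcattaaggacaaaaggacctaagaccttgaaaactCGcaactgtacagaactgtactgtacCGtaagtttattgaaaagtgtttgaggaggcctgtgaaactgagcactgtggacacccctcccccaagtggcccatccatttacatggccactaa
Plxnd1 5 µM span region, chr6:115991795-115991918, minus strand: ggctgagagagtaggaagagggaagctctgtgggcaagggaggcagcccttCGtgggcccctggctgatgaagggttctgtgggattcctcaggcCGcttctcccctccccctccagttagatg

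The 10 start regions of guidance genes with a score of 10 or more held at most 5 CpG per 100 bp, although median scores differed little with CpG content. Among start regions, 13 held over 5 CpG per 100 bp, and their scores reached 7.75 at most, with 0 of 13 at 10 or more. Of the 36 other start regions, 10 had a score of 10 or more (27.8%). Over all protein-coding genes, 3.91% of 4426 CpG-dense start regions and 20.2% of the 8890 others scored 10 or more. The median scores were 5.49 in the CpG-dense and 5.96 in the other start regions of guidance genes, and 4.72 and 5.23 over all protein-coding genes, in the same order. Among span regions, 2 of 8 CpG-dense regions and 69 of 153 others scored 10 or more. The median GC content was 57.3% in start regions and 52.1% in span regions of guidance genes, against 54.7% and 49.3% in those of all protein-coding genes.

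**Figure D5:**
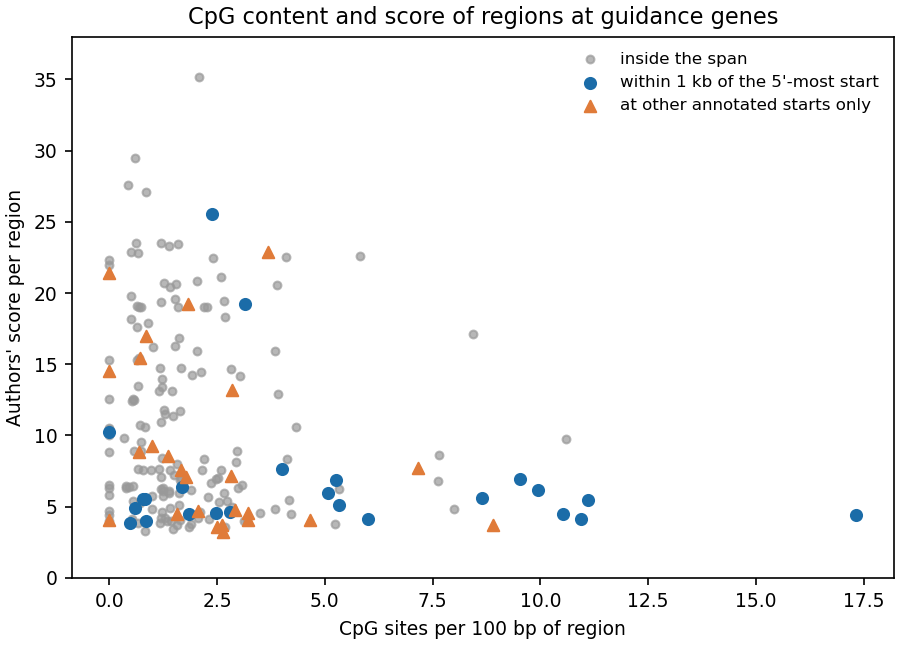
The authors' score (vertical axis) against CpG sites per 100 bp (horizontal axis) for all 210 regions of guidance genes, with start regions at the 5′-most start as circles, at other starts as triangles, and span regions in grey. Of the 21 regions above 5 CpG per 100 bp, 2 score 10 or more, and of all 210 regions 81 do.

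RefSeq promoter sequences, from 250 bases before to 50 bases after a start, were matched for 27 of the 30 guidance genes with a start region and for 32 of the 39 without. Where a gene had several promoter sequences, the one with the most CpG was used. The median CpG counts were 23 in guidance genes with a start region and 19.5 in those without. Over all protein-coding genes the medians were 23 with and 7 without, so guidance genes without a start region had a higher median than all genes without one. These guidance genes also had a median of 4 annotated starts, against 2 for all genes without a start region. More starts can offer more promoters to choose from, and the part of this was not tested.

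A few short motifs were looked for on both strands of the regions. The GC box (GGGCGG) was found in 14.3% of the start regions of guidance genes, against 22.4% of those of all protein-coding genes and 9.53% of the whole list. The E-box (CACGTG) was found in 4.08%, against 3.56%, and the AP-1 site (TGANTCA) in 2.04%, against 3.73%. The CRE (TGACGTCA) and the ETS site (CCGGAAG) were found in 0 of 49, against 0.353% and 4.06%. In span regions of guidance genes AP-1 was found in 8.70%, against 5.49% of span regions of all protein-coding genes. These are matches of letters, and the counts behind them were small, with 7 start regions holding a GC box and 14 span regions holding an AP-1 site.

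A further 66 genes of guidance signalling were taken from knowledge of the pathway. Some act downstream of the receptors, among them kinases, GTPase regulators and actin-binding proteins. Others are adhesion partners, cues or receptors outside the families above, such as L1cam, Draxin, Ntng1 and Neo1. All are called effectors below. Of these, 40 had a start region, or 60.6% (47.8% to 72.4%), against 39.5% of all protein-coding genes. They had a median of 6 annotated starts against 3. Over all protein-coding genes the share was 43.4% with 3 to 5 starts and 65.3% with 6 or more. The part of this in the effectors was not tested. The 6 with the highest-scoring start regions were Ptk2, a focal adhesion kinase, with a score of 25.7, Evl, an actin-regulating Ena/VASP protein, with 22.3, Rras, a GTPase acted on by plexins, with 20.002, Mical3, of the oxidoreductases that disassemble actin, with 19.3, and the Src-family kinase Fyn and the cofilin kinase Limk1, both with 19.00731, the value repeated in the list. At or above the list's median score, 14 of the 66 had a start region, or 21.2% (12.1% to 33.0%), against 14.6%, which lies inside that interval. Counting the 5′-most start alone, 30 had one, or 45.5% (33.1% to 58.2%), against 32.5%.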

How the data were processed

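The 2 ChIP and 2 input libraries were grouped by kind. The tools named in the submitters' processing notes are CASAVA 1.8, Bowtie 1.0.0 and MACS2, and the build is mm10. The authors' deposited list holds MACS2 bdgdiff regions with a score each, and per the file headers no regions common to both conditions. Read totals and the scaling between libraries are not given in the sources used here. A difference in depth or enrichment between the ChIP libraries would change how many regions each condition gets.

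Regions were set against GENCODE M21 and RefSeq GRCm38.p6, the same build, with Python 3.11.15, pandas 2.3.3, scipy 1.17.1 and pysam 0.24.0. An overlap of at least 1 bp counted, and the overlap step was tested on simulated data. Densities divide span regions by the whole span. Flanks are 1000 kb on either side of a gene. Flank values count every region whose midpoint lies there, while span values leave out the gene's own start regions, so the 2 measures differ. No test was made. Values are given in full for up to 4 genes per family with the highest-scoring start region, up to 2 with the most span regions, every 5 µM region and 6 effectors. The members and lists were chosen with earlier results of these data known. Other windows, scores, starts and chromosome sets were tried.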

Additional observations from a re-analysis of the deposited data

How the results depend on the processing

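With a start window of 500 bp, a start region was found at 11 ligand genes, 7 semaphorins, 2 ephrins and 0 neuropilins, and with 2500 bp at 2 netrins and 2 neuropilins. The share over all protein-coding genes changed in the same direction. At 500 bp it was 32.5%, against 31.9% of guidance genes, and at 2500 bp it was 46.5%, against 53.6%. With regions at or above the median score only, the counts with a start region were 17 guidance genes, 10 ligand and 7 receptor genes, 7 semaphorins, 2 ephrins, 2 Eph receptors, 1 netrin receptor, 0 netrins, 0 neuropilins, 14 effectors and 3213 of all protein-coding genes. There were then 99 span regions in guidance genes, at 0.836 per 100 kb against 1.12 over all protein-coding genes. With the 5′-most start only, the counts were 19 guidance genes, 10 ligand genes, 4 semaphorins, 1 netrin receptor and 0 neuropilins. In that setting 27.5% of guidance genes had a start region, against 32.5% of all protein-coding genes. The median score per marked guidance gene was 5.78 over all its start regions, against 7.36 for its strongest. Density over all protein-coding genes was 1.96 per 100 kb by region midpoint and 1.74 without the 2 commonest scores. Outside 2500 bp of any start it was 1.04 in guidance genes and 1.41 over all. Without chromosomes 3, 5, 11 and 15, chosen after seeing the data, 27 of the 51 remaining guidance genes held 91 span regions. Span regions lay in 5643 of the 17250 remaining protein-coding genes. The densities were 1.09 per 100 kb in guidance genes against 1.59. Start regions lay at 41.2% of these guidance genes, against 36.8%. Without Slit3, also chosen after seeing the data, 136 span regions remained, at 1.21 per 100 kb. The density stayed lower in guidance genes than over all protein-coding genes in each of these settings that gave both, but within length classes it was lower only over 100 kb (0.808 against 1.28) and higher at 20 to 100 kb (9.45 against 2.66) and under 20 kb (6.98 against 3.53). Of the 133 values recomputed, 34 moved and 99 did not move by more than their interval or 1.5 times. Using 70 µM regions only moved none, but that setting left out only 360 of 45855 regions and so could hardly move a value. The cause of each move beyond the regions left out by the setting itself was not tested. Depth is unknown, and with at most 1 ChIP library per level the choline level and the library cannot be told apart. No paired analysis was possible because the result comes from no test.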
